A study of Mus musculus with 16 samples.

Results

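Transcripts of 10 genes of mitophagy and autophagy were followed in the mouse cerebellum: *Pink1*, the mitophagy receptors *Bnip3*, *Bnip3l* and *Fundc1*, the cargo receptors *Optn* and *Sqstm1*, and the autophagy genes *Ulk1*, *Becn1*, *Map1lc3a* and *Map1lc3b*. A probe was taken where it is no control and its accession belongs to a listed gene, without use of its signal. All 10 genes were found among the 22911 named genes of the array, on 16 probes. The 16 probes were well above background on all 16 arrays and passed the filter on dim probes, as did 16737 named genes in all. *Pink1*, *Bnip3l*, *Optn*, *Sqstm1*, *Map1lc3b* and *Ulk1* have 2 probes each, and below a gene is given by its brighter probe unless the dimmer probe is named.

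RNA of cerebellar cortex from 16 mice was hybridised to 16 single-colour (Cy3) Agilent arrays, 1 mouse to an array. Each genotype (WT or Atm-/-) was given NR or vehicle (veh), with 4 arrays in every such group. Atm-/- mice carried the allele of the strain B6;129S4-Atmtm1Bal/J on both chromosomes, so every cell of the animal lacked ATM, the kinase that signals DNA double-strand breaks and is lost in ataxia telangiectasia, and WT mice were their littermates. The NR groups drank nicotinamide riboside, a precursor of NAD+, at 3.5 mg/ml of drinking water for 2 months from the age of 6 weeks, and the veh groups drank water alone. All groups were 3.5 months old when the tissue was taken, and all 16 mice are labelled male. The comparisons ask whether the loss of ATM, or NR in either genotype, was accompanied by a different level of these transcripts.

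In autophagy a membrane closes around cytoplasm or an organelle and fuses with the lysosome, where the content is degraded. The ULK1 kinase starts the process, Beclin 1 (*Becn1*) belongs to the lipid kinase complex that marks the forming membrane, and LC3 proteins (*Map1lc3a*, *Map1lc3b*) are attached to its lipid and bind cargo receptors. Mitophagy is the form that removes mitochondria: PINK1 accumulates on damaged mitochondria and phosphorylates ubiquitin there, after which receptors such as optineurin and p62 bind the ubiquitin chains, while BNIP3, NIX (*Bnip3l*) and FUNDC1 sit in the mitochondrial outer membrane and bind LC3 directly. Much of this machinery is controlled on the protein, which an array of transcripts does not measure.

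Arrays differed in more than genotype and treatment, and some of these differences coincide with the groups. Signal of *Xist* with 0 of 3 Y-linked genes detected, which goes against the label, was found on 4 arrays, namely Atm-/- veh 3, Atm-/- NR 4, WT NR 1 and WT NR 4, so results are also given on the 12 arrays with Y-gene signal. The genotypes were on separate slides, and within a slide the veh arrays lay in 1 row and the NR arrays in the other, so slide and genotype, and row and treatment, cannot be told apart. Probes well above background numbered 39134 to 41905 on the Atm-/- veh arrays and 34945 to 37817 on the Atm-/- NR arrays, and 36402 to 42559 on the WT arrays. Of the 6 Purkinje cell and 6 granule cell markers all were detected on every array, and 0 of either list was called in any comparison by limma (lowest adjusted p = 0.107). Of the glial markers 0 were called either. Furthest from 0 in Atm-/- mice with NR against veh were *Gfap* at -0.75, *C1qa* at -0.67 and *Aqp4* at 0.52 (limma adjusted p = 0.0735, 0.0803 and 0.118). The other microglia markers did not share 1 direction there, with *Cx3cr1* at 0.24, *Aif1* at 0.18, *Csf1r* at 0.12 and *Tmem119* at -0.34. The other Bergmann glia and astrocyte markers ran from -0.14 (*Gdf10*) to 0.08 (*Slc1a3*). The summed signal of choroid plexus markers ran from 11.74 to 18.18 (log2) over the WT veh arrays and from 11.11 to 13.18 over the other groups, and that of forebrain neuron markers from 8.78 to 13.40 and from 8.12 to 10.04. The part of these differences in the results was not tested. The dimmer of the 2 probes of *Atm* was at 8.63 to 9.03 on WT veh arrays and 7.91 to 8.08 on Atm-/- veh arrays, lower by limma (-0.87, adjusted p = 0.000317), and the genotypes did not overlap with NR either. The brighter *Atm* probe was at 8.97 to 9.27 and 8.72 to 8.82 with veh, without passing the test (-0.35, limma adjusted p = 0.221), and overlapped between the genotypes with NR. In bulk tissue, fewer cells of a type and less RNA per cell cannot be told apart.

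None of the 10 genes passed the test in any comparison. With limma and an adjusted p taken over all 37253 kept probes, 0 of 10 were called for Atm-/- veh against WT veh, where 0.0538% of all named genes were called, and 0 of 10 between Atm-/- NR and Atm-/- veh, where 11.5% were. Likewise 0 of 10 were called for NR in the WT mice (0% of all named genes) and 0 of 10 between the genotypes with NR (0.0597%). Before adjustment, p was under 0.05 for 1 of 10 genes between Atm-/- veh and WT veh (16.8% of all named genes) and for 3 of 10 between Atm-/- NR and Atm-/- veh (30.5%), which is close to the share over the array in the second case. It was under 0.05 for 0 of 10 for NR in the WT mice (8.84%) and for 0 of 10 between the genotypes with NR (4.34%). On the deposited z-scores, the methods' t-test was applied at their limit on p alone, without the further limits (z-ratio, false discovery rate and a test over all groups) that the methods set beside it. At that limit 4 genes passed between the Atm-/- groups (*Fundc1*, *Optn*, *Sqstm1* and *Map1lc3a*), where 33.8% of all named genes did. In the other 3 comparisons 0 of 10 passed, where 13.3% of all named genes did between the veh groups, 8.08% between the WT groups and 6.98% between the NR groups. After Benjamini-Hochberg adjustment 0 of 10 passed in all 4, against 0.00597% of all named genes between the veh groups, 11.7% between the Atm-/- groups, 0% between the WT groups and 0.0239% between the NR groups.

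For each gene alone, an interval gives the range of change that the scatter between arrays allows. It does not cover a shift of slide or row, which coincide with genotype and treatment. Within a group the standard deviation of a gene over its 4 arrays lay between 0.03 and 0.25 (log2). Over the 10 genes, the 95% confidence intervals of the change between Atm-/- veh and WT veh lay within 0.842-fold and 1.45-fold, and those between Atm-/- NR and Atm-/- veh within 0.654-fold and 1.3-fold. Between WT NR and WT veh they lay within 0.781-fold and 1.3-fold. These bounds are those of the brighter probes. Over all 16 probes they widened to 0.713-fold and 1.51-fold between the veh groups, 0.654-fold and 1.33-fold between the Atm-/- groups and 0.689-fold and 1.4-fold between the WT groups.

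**Figure D1:**
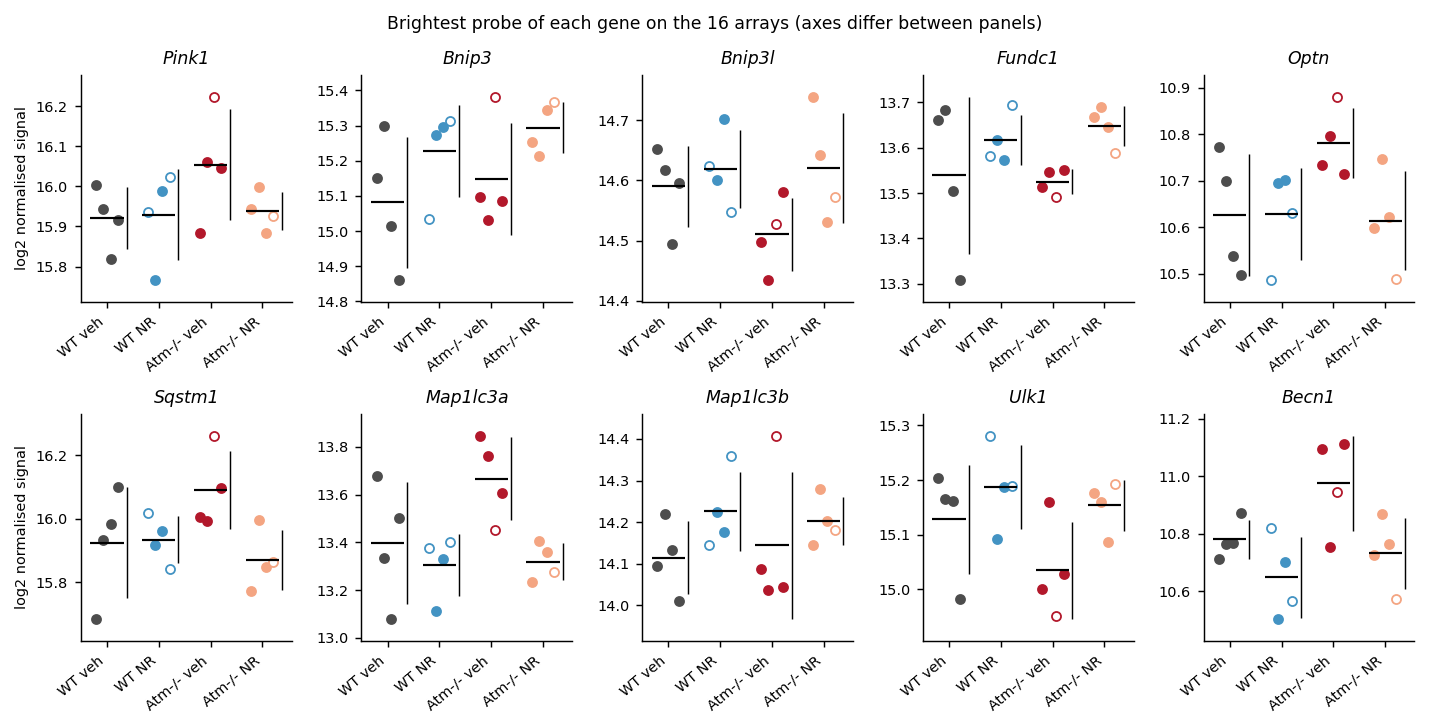
Log2 normalised signal of the brightest probe of each of the 10 genes on the 16 arrays, by group, with the mean as a bar and 1 SD as a line beside it (n = 4); open circles are the 4 arrays without Y-gene signal. *Map1lc3a* and *Fundc1* are the panels in which Atm-/- veh and Atm-/- NR do not overlap. The share of all named genes without overlap was not counted, and 30.5% had an unadjusted limma p under 0.05 in this comparison.

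*Pink1* encodes the kinase that marks damaged mitochondria. Its log2 signal was 16.003, 15.94, 15.82 and 15.92 on the WT veh arrays and 15.94, 15.77, 15.99 and 16.02 on the WT NR arrays. On the Atm-/- veh arrays it was 15.88, 16.06, 16.22 and 16.05, and on the Atm-/- NR arrays 15.94, 15.998, 15.88 and 15.93. All 4 groups overlapped, and the highest of the 16 values came from Atm-/- veh 3, which has no Y-gene signal. The change between Atm-/- veh and WT veh was 0.13 ± 0.08 (log2, SE), with an adjusted p of 0.468 in limma, and 0.08 on the 12 arrays with Y-gene signal. Between Atm-/- NR and Atm-/- veh it was -0.12 ± 0.08 (limma adjusted p = 0.38). The dimmer *Pink1* probe differed by 0.27 ± 0.15 between Atm-/- veh and WT veh (limma adjusted p = 0.426) and by 0.02 between Atm-/- NR and Atm-/- veh, so the second change did not have the same sign on both probes.

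*Bnip3* and *Bnip3l* encode related outer membrane receptors that are known to be induced when oxygen is low. In the WT mice the log2 signal of *Bnip3* was 15.08 ± 0.19 (SD, n = 4) with veh and 15.23 ± 0.13 with NR, and in the Atm-/- mice 15.15 ± 0.16 with veh and 15.29 ± 0.07 with NR. The NR group had the higher mean in either genotype, and NR and veh values overlapped in both. The change was 0.15 ± 0.11 between Atm-/- NR and Atm-/- veh and 0.15 ± 0.11 between WT NR and WT veh (limma adjusted p = 0.393 and 0.796). Between Atm-/- veh and WT veh it was 0.07 ± 0.11, and -0.01 on the arrays with Y-gene signal.

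The RefSeq promoter table holds 7 of the 10 genes (not *Bnip3l*, *Map1lc3a* or *Becn1*), each with 250 bases before and 50 after the start of the transcript. The E-box CACGTG, which reads the same on both strands and holds the core that hypoxia-inducible factors bind, was in 1 of these 7 promoters, that of *Bnip3*, and in 7.15% of all 32851 promoters. The stretch is shown because it is the only such match among the genes followed here. It lies at chr7:138909583-138909640 of GRCm38.p6, minus strand, with the E-box in capitals starting 108 bases before the transcript. It describes the window and says nothing of binding in this tissue.
Bnip3: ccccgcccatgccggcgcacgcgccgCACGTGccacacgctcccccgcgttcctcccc

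The 2 probes of *Bnip3l* went opposite ways. The brighter probe read 14.50, 14.44, 14.53 and 14.58 on the Atm-/- veh arrays and 14.74, 14.64, 14.53 and 14.57 on the Atm-/- NR arrays, which overlap. The dimmer probe read 13.15, 13.11, 13.41 and 13.25 on the Atm-/- veh arrays and 12.99, 13.07, 12.85 and 12.87 on the Atm-/- NR arrays, all below the lowest Atm-/- veh value. In the WT mice the dimmer probe read 13.06, 13.08, 13.07 and 13.25 with veh and 13.04, 12.83, 12.96 and 13.11 with NR, which overlap. Between Atm-/- NR and Atm-/- veh the change was 0.11 ± 0.07 on the brighter probe (limma adjusted p = 0.31) and -0.29 ± 0.09 on the dimmer (limma adjusted p = 0.0588).

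Averaged over both genotypes, the dimmer *Bnip3l* probe fell by 0.21 ± 0.06 with NR (limma adjusted p = 0.0481), the only call among the 16 probes in the 7 comparisons, where 10.8% of all probes were called. The call was lost under 18 of 24 other settings, among them the 12 arrays with Y-gene signal (-0.21, adjusted p = 0.0951). The brighter minus the dimmer probe was 1.12 to 1.34 (log2) on the Atm-/- veh arrays and 1.57 to 1.75 on the Atm-/- NR arrays, without overlap, and 1.34 to 1.60 and 1.44 to 1.77 on the WT veh and WT NR arrays, with overlap. Over the 16 arrays the 2 probes had a Pearson correlation of -0.269, and of 0.279 over deviations from the group means. The difference was singled out after its values were seen, so it carries no test, and the part of the transcript that either probe reads was not analysed here.

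**Figure D2:**
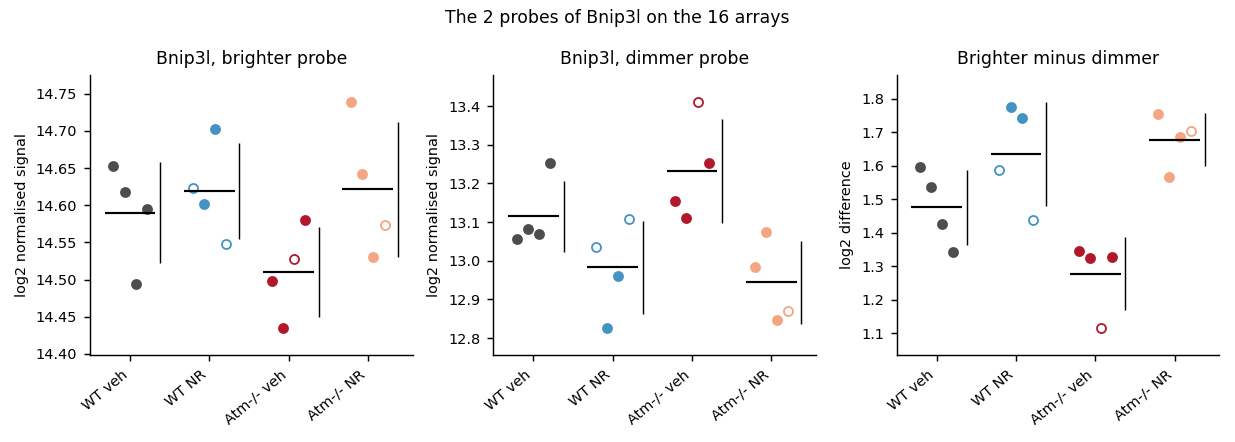
Log2 normalised signal of the brighter and the dimmer probe of *Bnip3l* on the 16 arrays, and the brighter minus the dimmer, with mean and SD as above (n = 4); open circles are the arrays without Y-gene signal. With NR the dimmer probe lies lower and the difference higher in the Atm-/- mice, without overlap. How many probes over the array do so was not counted.

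*Fundc1*, another receptor that answers to low oxygen, had little spread in 3 of the 4 groups. It read 13.66, 13.68, 13.50 and 13.31 in WT veh, 13.51, 13.55, 13.49 and 13.55 in Atm-/- veh, and 13.67, 13.69, 13.65 and 13.59 in Atm-/- NR. The Atm-/- NR values all lay above the Atm-/- veh values, and overlapped WT veh. How common such a separation is over the array was not counted. The change between Atm-/- NR and Atm-/- veh was 0.12 ± 0.08 (limma adjusted p = 0.333), and between Atm-/- veh and WT veh it was -0.01 ± 0.08.

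*Optn* and *Sqstm1* encode optineurin and p62, receptors that link ubiquitin on the cargo to LC3. *Optn* was 10.63 ± 0.13 in WT veh, 10.78 ± 0.07 in Atm-/- veh and 10.61 ± 0.11 in Atm-/- NR, with overlap between groups. It differed by 0.15 ± 0.08 between the veh groups, Atm-/- minus WT, and by -0.17 ± 0.08 between the Atm-/- groups, NR minus veh (limma adjusted p = 0.411 and 0.217).

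*Sqstm1* read 15.68, 15.93, 15.98 and 16.10 on the WT veh arrays, 16.01, 15.994, 16.26 and 16.10 on the Atm-/- veh arrays, and 15.77, 15.997, 15.85 and 15.86 on the Atm-/- NR arrays. The Atm-/- groups overlapped by a single array on each side, Atm-/- NR 2 just above Atm-/- veh 2. The change between Atm-/- NR and Atm-/- veh was -0.22 ± 0.09 (limma adjusted p = 0.149), and -0.16 on the arrays with Y-gene signal. The dimmer *Sqstm1* probe differed by 0.07 ± 0.09 in the same comparison, the opposite sign. Between Atm-/- veh and WT veh the brighter probe differed by 0.16 ± 0.09 (limma adjusted p = 0.432).

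*Map1lc3a*, which encodes LC3A, had the largest change of the 10 genes in both comparisons that involve Atm-/- veh. It read 13.68, 13.33, 13.08 and 13.50 on the WT veh arrays, 13.38, 13.11, 13.33 and 13.40 on WT NR, 13.85, 13.76, 13.45 and 13.61 on Atm-/- veh, and 13.23, 13.41, 13.36 and 13.28 on Atm-/- NR. Every Atm-/- NR value lay below every Atm-/- veh value, a separation whose share over the array was not counted. Atm-/- veh overlapped WT veh, whose SD of 0.25 was the largest of any of the 10 genes in any group. Against WT veh, Atm-/- veh differed by 0.27 ± 0.12 (limma adjusted p = 0.333), and the change was -0.35 ± 0.12 between Atm-/- NR and Atm-/- veh (limma adjusted p = 0.0886). On the arrays with Y-gene signal these were 0.34 and -0.40 (limma adjusted p = 0.361 and 0.145). The Atm-/- NR mean of 13.32 stood beside a WT veh mean of 13.40 and a WT NR mean of 13.31.

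*Map1lc3b*, which encodes LC3B, had smaller differences, none of which passed the test, and its probes disagreed in sign after NR. With veh the brighter probe was 14.11 ± 0.09 in WT and 14.14 ± 0.18 in Atm-/- mice, and with NR 14.23 ± 0.09 and 14.20 ± 0.06. It differed by 0.03 ± 0.09 between the veh groups and by 0.06 ± 0.09 between the Atm-/- groups, and the Atm-/- veh spread came from 1 array, Atm-/- veh 3, at 14.41 against 14.04 to 14.09 on the other 3. The dimmer *Map1lc3b* probe had the signs of *Map1lc3a*, at 0.11 ± 0.11 between the veh groups and -0.17 ± 0.11 between the Atm-/- groups (limma adjusted p = 0.649 and 0.311).

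*Becn1* read 10.71, 10.77, 10.77 and 10.87 on the WT veh arrays, 10.82, 10.50, 10.70 and 10.57 on WT NR, 11.09, 10.76, 10.94 and 11.11 on Atm-/- veh, and 10.73, 10.87, 10.76 and 10.57 on Atm-/- NR. Atm-/- veh 2 was the array through which the Atm-/- veh group overlapped the others. The change was 0.20 ± 0.10 between Atm-/- veh and WT veh (limma adjusted p = 0.375) and -0.24 ± 0.10 between Atm-/- NR and Atm-/- veh (limma adjusted p = 0.128). Without Atm-/- veh 2 the second change was -0.32 and its limma adjusted p 0.0493, the lowest over its alternatives, and the highest was 0.308 on the arrays with Y-gene signal.

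*Ulk1*, the kinase that starts autophagosome formation, was 15.13 ± 0.10 in the WT mice with veh and 15.19 ± 0.08 with NR, against 15.03 ± 0.09 and 15.15 ± 0.05 in the Atm-/- mice. Its differences of -0.09 ± 0.07 between the veh groups (Atm-/- minus WT) and 0.12 ± 0.07 between the Atm-/- groups (NR minus veh) did not pass the test (limma adjusted p = 0.572 and 0.302).

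**Figure D3:**
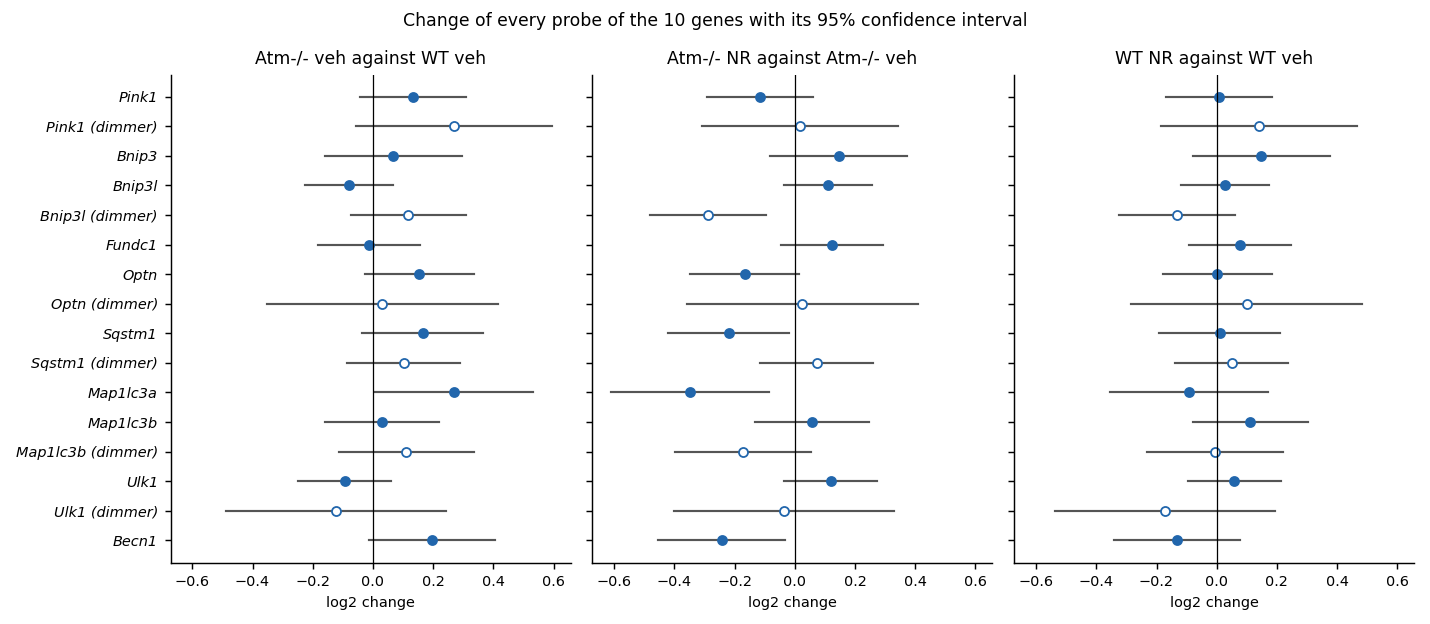
Log2 change of each of the 16 probes of the 10 genes in 3 comparisons, with the 95% confidence interval from limma; filled circles are the brighter or only probe of a gene and open circles the dimmer. In the middle panel the intervals of *Map1lc3a*, *Becn1*, *Sqstm1* and the dimmer *Bnip3l* probe lie below 0, and no probe passed the adjusted test.

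For the genes with 2 probes, the NR comparison in the Atm-/- mice gave opposite signs on the 2 probes in 6 of 6 cases, where 41% of the 5983 named genes with at least 2 kept probes did so. Between Atm-/- veh and WT veh the signs differed for 1 of 6, *Bnip3l* (38.7% of genes over the array), and between WT NR and WT veh for 3 of 6 (39.1%). In the Atm-/- mice some of these NR changes were smaller than their SE, which leaves their sign undetermined. These were the dimmer probes of *Pink1* (0.02 ± 0.15), *Optn* (0.02 ± 0.18), *Ulk1* (-0.04 ± 0.17) and *Sqstm1* (0.07 ± 0.09). The brighter *Map1lc3b* probe (0.06 ± 0.09) was another. For these genes opposite signs alone do not show that the probes disagree. *Bnip3l* changed by more than the SE on both probes, so its direction there depends on the probe. Differences between probes were not tested.

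In the WT mice, NR was accompanied by changes from -0.13 ± 0.10 (*Becn1*) to 0.15 ± 0.11 (*Bnip3*), with limma adjusted p of 0.796 or more. Between Atm-/- NR and WT NR the changes ran from -0.06 ± 0.09 (*Sqstm1*) to 0.08 ± 0.10 (*Becn1*), the narrowest range of the 4 comparisons between 2 groups. Whether NR acted differently on the genotypes was tested directly by an interaction term: 0 of 10 genes were called (0% of all named genes), 0 of 10 had an unadjusted p under 0.05 (5.96%), and the values ran from -0.26 ± 0.17 (*Map1lc3a*) to 0.08 ± 0.10 (*Bnip3l*). Averaged over both treatments, Atm-/- against WT called 0 of 10 genes (0.221% of all named genes), 0 of 10 before adjustment (13.1%), with *Map1lc3a* the furthest from 0 at 0.14 ± 0.09.

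Averaged over both genotypes, NR against veh called 0 of 10 genes, where 13.4% of all named genes were called, and 2 of 10 had an unadjusted p under 0.05 (31%). These were *Map1lc3a* at -0.22 ± 0.09 and *Becn1* at -0.19 ± 0.07, with limma adjusted p of 0.119 and 0.0967. Each was called in 1 of 25 other settings, with a single array left out. That array was WT veh 3 for *Map1lc3a* (-0.27, limma adjusted p = 0.0444) and Atm-/- veh 2 for *Becn1* (-0.22, limma adjusted p = 0.043). The highest limma adjusted p over the 25 settings was 0.211 for *Map1lc3a* and 0.181 for *Becn1*.

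The 10 genes did not move as a block across arrays. Of their 45 pairs, 26 had a Pearson correlation above 0 over the 16 arrays, with a median of 0.105 and a range from -0.654 (*Fundc1* and *Sqstm1*) to 0.767 (*Bnip3* and *Map1lc3b*). *Map1lc3a* and *Map1lc3b*, which encode close relatives, had -0.392, *Sqstm1* and *Becn1* 0.611, and *Fundc1* and *Ulk1* 0.606. The arrays share slide, labelling and normalization, so these are descriptions without a test. Atm-/- NR 2 was the highest array of its group for 7 of the 10 genes, and WT veh 1, WT NR 4 and Atm-/- veh 3 each for 5.

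The genes whose signal followed *Pink1* most closely over the 16 arrays, out of 16624 named genes outside the lists, were *Ciapin1* (Pearson r = 0.888), an iron-sulphur protein of the cytosol, *Ndrg2* (0.86), an astrocyte gene, *Thnsl2* (0.827), *Gm16283* (0.82) and *Dnajc12* (0.818), a co-chaperone. Their changes had the same signs as *Pink1*, from 0.16 to 0.32 between Atm-/- veh and WT veh and from -0.23 to -0.11 between Atm-/- NR and Atm-/- veh. They were picked for their likeness to *Pink1*, so these signs are no separate result.

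Around these members, 103 further genes of the same pathway were measured, from the initiation complex to the lysosome and upstream signalling, and all passed the filter. For Atm-/- veh against WT veh limma called 0 of 103 (0.0538% of all named genes). There 20 of 103 had an unadjusted p under 0.05, near the 16.8% of all named genes that did. Between Atm-/- NR and Atm-/- veh it called 21 of 103 (20.4%), of which 10 were higher (6.67% of all named genes were) and 11 lower (4.8%), and the median change of the 103 was -0.01. For NR in the WT mice, and between the genotypes with NR, 0 of 103 were called. An unadjusted p under 0.05 was found for 10 and 1 of them (8.84% and 4.34% of all named genes). Of the 11 roles, 6 held genes that rose and genes that fell.

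The count depended on the arrays. On the 12 arrays with Y-gene signal 1 of 103 was still called between Atm-/- NR and Atm-/- veh, *Ncoa4*, where 1.51% of all named genes were, although all 21 kept their direction and an unadjusted p under 0.05. Leaving out a single array gave 6 calls without Atm-/- NR 3, 7 without Atm-/- veh 1, 12 without Atm-/- NR 4, and 13 without Atm-/- veh 4 or without Atm-/- NR 2. The share of all named genes called in each of these cases was not counted. A loss over the whole array therefore cannot be told apart from a loss particular to these genes. Over 26 other settings the call between Atm-/- NR and Atm-/- veh was lost in 16 for *Rab7*, 14 for *Usp8*, 13 for *Ddit4*, 13 for *Vps16* and 11 for *Retreg1*. It was lost in 0 for *Ncoa4*. The Atm-/- NR arrays also had fewer probes above background than every Atm-/- veh array, as given above, and the part of that in these changes was not tested.

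**Figure D4:**
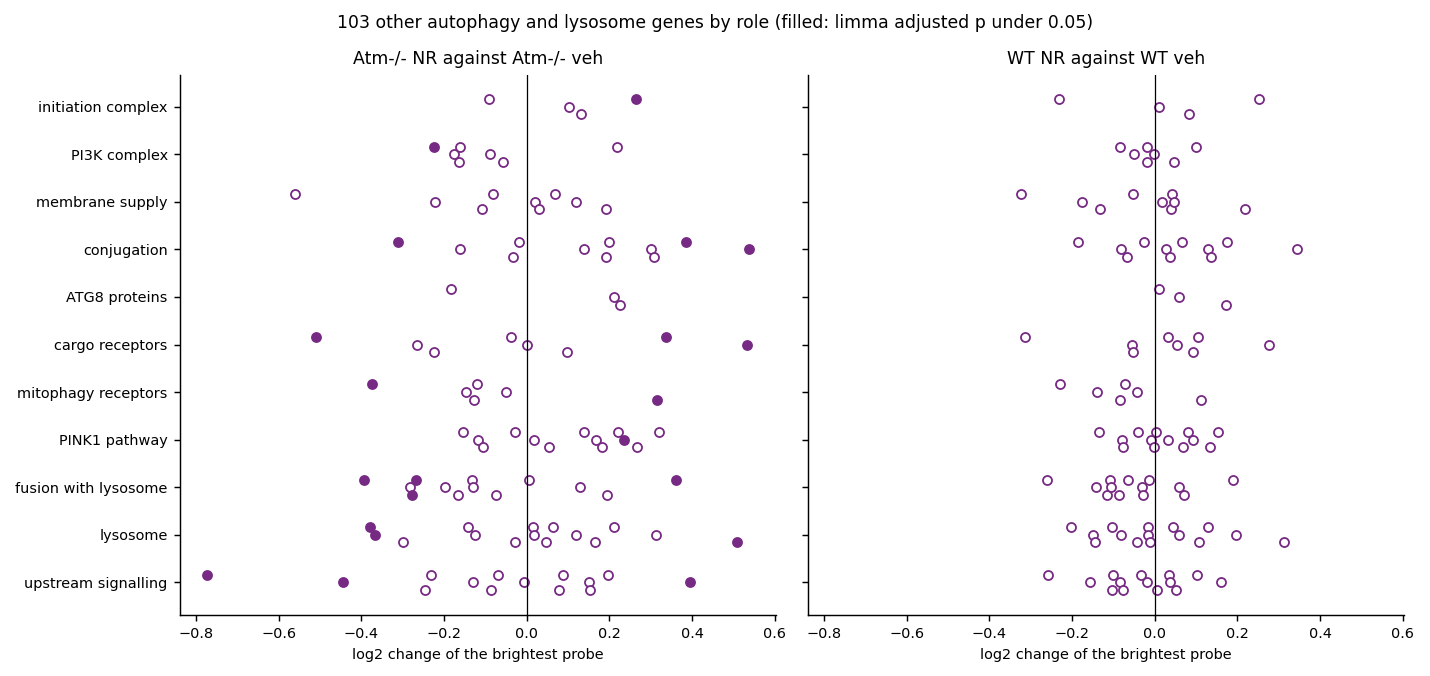
Log2 change of the brightest probe of 103 further autophagy and lysosome genes by role, in the NR comparison of each genotype; filled circles passed the limma adjusted test. In the Atm-/- mice 10 genes rose and 11 fell, in 9 of the 11 roles, and in the WT mice 0 passed.

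Among genes that build the autophagosome, *Atg12* rose by 0.54 ± 0.10 between Atm-/- NR and Atm-/- veh (limma adjusted p = 0.0122); it encodes the ubiquitin-like protein that forms the ATG12-ATG5 conjugate. Its signal was 14.13 to 14.41 on Atm-/- veh arrays, 14.57 to 14.82 on Atm-/- NR arrays and 14.36 to 14.73 on WT veh arrays. *Atg4b*, the protease that prepares LC3, changed by 0.39 and *Rb1cc1*, the scaffold FIP200 of the ULK1 complex, by 0.26, whereas *Atg7*, the enzyme that activates ATG12 and LC3, changed by -0.31 and *Ambra1*, a partner of Beclin 1, by -0.22. The 11 conjugation genes thus held 2 that rose and 1 that fell, and the 7 genes of the lipid kinase complex 1 that fell. The dimmer *Atg4b* probe was at -0.12 without passing. The 5 other *Rb1cc1* probes ran from -0.32 to 0.37, and both ends passed the test (limma adjusted p = 0.0191 and 0.033), so its direction depends on the probe.

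Among receptors, *Ncoa4*, which carries ferritin into autophagosomes, rose by 0.53 ± 0.07 (limma adjusted p = 0.00574), the lowest adjusted p of the 103. It read 13.32 to 13.52 in Atm-/- veh, 13.90 to 14.05 in Atm-/- NR, 13.61 to 13.77 in WT veh and 13.82 to 14.05 in WT NR. The other *Ncoa4* probe changed by 0.14 and did not pass. *Calcoco1*, a receptor for endoplasmic reticulum, fell by 0.51 ± 0.10 (limma adjusted p = 0.0127), from 8.80 to 9.28 in Atm-/- veh to 8.43 to 8.64 in Atm-/- NR, and *Retreg1*, also a receptor for endoplasmic reticulum, changed by 0.34 with its dimmer probe at -0.10.

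Among genes that act on mitochondria, *Fkbp8*, an outer membrane receptor that binds LC3, fell by 0.38 ± 0.08 (limma adjusted p = 0.0165), and its dimmer probe fell by 0.34 (limma adjusted p = 0.0494). *Fkbp8* read 14.24 to 14.54 in Atm-/- veh, 13.94 to 14.03 in Atm-/- NR and 13.98 to 14.31 in WT veh. *Pgam5*, a mitochondrial phosphatase that acts on FUNDC1, changed by 0.31 ± 0.06 (limma adjusted p = 0.0137) and *Usp8*, a deubiquitinase, by 0.23 ± 0.07 (limma adjusted p = 0.0429). Of the 13 genes grouped as the PINK1 pathway, *Usp8* was the only call, with 5 of the 13 higher (17.5% of all named genes) and 0 lower (13%) at an unadjusted p under 0.05. At that limit 5 of the 11 conjugation genes were higher and 1 lower, and 1 of the 13 fusion genes was higher and 5 lower.

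Among genes of fusion and of the lysosome, *Ctsd*, the protease cathepsin D, fell by 0.38 ± 0.09 and *Atp6v0d1*, a subunit of the proton pump that acidifies the lysosome, by 0.37 ± 0.08 (limma adjusted p = 0.0269 and 0.0142). *Ctsd* read 14.80 to 15.06 in Atm-/- veh and 14.51 to 14.64 in Atm-/- NR, and *Atp6v0d1* 14.64 to 14.81 and 14.23 to 14.43. *Mitf*, a transcription factor related to TFEB, rose by 0.51 ± 0.11 (limma adjusted p = 0.0145), while its other 2 probes were at 0.30 and -0.01 without passing. The fusion genes *Vps41*, *Vps11* and *Rab7* changed by -0.39, -0.28 and -0.27 and *Vps16* by 0.36, and dimmer probes of *Vps11* and *Vps16* had the opposite sign.

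The E-box in its longer form TCACGTGA, at which TFEB is known to act on lysosomal genes, was in the promoters of 8 of the 87 pathway genes the table holds (7.14% of their 112 promoters, against 0.974% of all promoters). Of the 21 genes called in the Atm-/- mice it was in *Ctsd* and *Atp6v0d1*, which fell, and *Vps16*, which rose on its brightest probe. The rise rests on *Vps16* alone, whose other probe changed by -0.17 and whose call was lost in 13 of 26 other settings. In *Atp6v0d1* the E-box does not lie wholly before the start of the transcript, and the other 2 promoters are shown. They were chosen after the values were seen. *Ctsd* is at chr7:142387893-142387952, minus strand, with the E-box in capitals 99 bases before the transcript, and *Vps16* at chr2:130424275-130424319, plus strand, with it 19 bases before (GRCm38.p6, RefSeq).
Ctsd: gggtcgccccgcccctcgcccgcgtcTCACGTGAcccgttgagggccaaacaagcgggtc
Vps16: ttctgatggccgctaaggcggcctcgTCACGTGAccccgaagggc

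Upstream, *Ddit4*, a stress-induced inhibitor of mTOR, had the largest fall of the 103 genes and a wide spread. It fell by 0.77 ± 0.22 (limma adjusted p = 0.0426), from 14.18 to 14.87 in Atm-/- veh to 13.62 to 14.03 in Atm-/- NR, while WT veh ran from 13.82 to 14.72. *Stk11*, the kinase LKB1 that activates AMPK, changed by -0.44 and *Tsc1*, of the complex that restrains mTOR, by 0.39 (limma adjusted p = 0.0238 and 0.018). *Atg9a*, the membrane protein that supplies lipid, changed by -0.56 ± 0.23 but was not called (limma adjusted p = 0.135).

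The genes with the largest differences between Atm-/- veh and WT veh were *Stk11* (0.29), *Tax1bp1* (0.29) and *Ddit4* (0.24) on 1 side and *Atg12* (-0.32), *Gaa* (-0.30) and *Tsc1* (-0.30) on the other, and 0 of these passed the test (limma adjusted p = 0.197 or more). All 6 had the opposite sign between Atm-/- NR and Atm-/- veh, *Tax1bp1* at -0.27 and *Gaa* at 0.31 without passing the test (limma adjusted p = 0.0524 and 0.195). Both comparisons share the 4 Atm-/- veh arrays, so a value that is off in that group alone enters both with opposite signs. Between WT NR and WT veh the extremes were *Atg3* (0.34), *Mitf* (0.31) and *Ncoa4* (0.28), and *Atg9a* (-0.32), *Calcoco1* (-0.31) and *Vamp8* (-0.26), with limma adjusted p of 0.49 or more. Between Atm-/- NR and WT NR they were *Vamp8* (0.19), *Ykt6* (0.17) and *Wdr45b* (0.16), and *Atg9a* (-0.43), *Ddit4* (-0.27) and *Wdfy3* (-0.23), with limma adjusted p of 0.947 or more.

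Averaged over both genotypes, NR against veh called 22 of the 103 genes (21.4%), 10 higher (7.44% of all named genes) and 12 lower (5.94%). Of these, 18 were among the 21 called in the Atm-/- mice, with *Ncoa4* at 0.41, *Mitf* at 0.41, *Calcoco1* at -0.41 and *Fkbp8* at -0.30, and the other 4 were *Atg3* (0.33), *Fbxo7* (0.21), *Rubcn* (0.16) and *Atg2a* (-0.20). *Fbxo7* is a ubiquitin ligase subunit that binds PINK1, and *Rubcn* restrains fusion with the lysosome. Over 25 other settings the averaged call was lost in 18 for *Fbxo7*, 16 for *Rubcn*, 10 for *Atg2a* and 1 for *Atg3*. *Fbxo7* passed narrowly (limma adjusted p = 0.0493), and its other probes changed by 0.0003 and 0.25 without passing. The difference of the NR effects between genotypes called 0 of 103, with 7 at an unadjusted p under 0.05 (5.96% of all named genes). The calls in the Atm-/- mice are therefore not shown to differ from the values in the WT mice. The averaged count was 13 without WT NR 3, 14 without Atm-/- NR 3 and 8 on the arrays with Y-gene signal (6.57% of all named genes there), where all 22 kept their direction. With an array left out, the share of all named genes was not counted. Of the cell type markers, *Neurod6*, a forebrain neuron gene, was lower with NR in this average (-0.53, limma adjusted p = 0.00569), and its part in these counts was not tested.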

How the data were processed

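The authors ran Agilent Feature Extraction 12.0.3.1 and deposited 16 scanner files, whose intensity values have local background subtracted and are not normalized between arrays, and a table of z-scores, a score for each spot. Samples with low RNA integrity had been discarded. Groups and replicate numbers came from the labels.

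Probes were named through accessions in a RefSeq table (GRCm38.p6; 32994 of 56605 probes), used for names alone because the array was designed on another build. Kept were probes detected (at least 0.5 of their spots above background by the scanner software) in a whole group of 4 arrays. The log2 intensity was quantile normalized and spots marked as outliers were set aside; a probe left without a spot on an array was dropped, leaving 37253 probes (65.8%) for 16737 genes. Probes above background numbered 34945 to 42559 an array, and the number of arrays limits the precision. The p-values set each difference against the spread between arrays of a group, 1 mouse to an array. That spread joins differences between mice and between arrays.

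Group means of all 16 arrays were fitted in limma 3.58.1 (R 4.3.3) and 7 contrasts tested, two-sided, Benjamini-Hochberg over all kept probes, called at an adjusted p under 0.05. A gene stands for its brightest kept probe. Named were all 10 members, pathway genes called in a contrast or among the 3 largest rises or falls, and the 5 genes most correlated with *Pink1*. The code was tested on simulated data. Same-numbered arrays did not deviate together (r from -0.151 to 0.195). Members, lists, tests and alternatives were chosen with earlier results of these data known. Alternatives were scaling, background correction, z-scores, filters, replicate block, subsets of arrays, probe choice, the methods' t-test and leaving out each array.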

Additional observations from a re-analysis of the deposited data

Results flagged for a closer look

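In 64 groups of 4 arrays (16 probes in 4 groups), 3 held an array that stood apart from the other 3 by Dixon's ratio, where chance gives about 1 in 20. *Map1lc3b* read 14.41 on Atm-/- veh 3, an array without Y-gene signal, against 14.04 to 14.09 on the others of its group. *Bnip3* read 15.03 on WT NR 1, also without Y-gene signal, against 15.27 to 15.31. The dimmer *Bnip3l* probe read 13.25 on WT veh 4 against 13.06 to 13.08.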

How the results depend on the processing

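Of 2438 recomputed changes of 95 results, 17 changed sign. They were changes near 0 or of genes whose probes had opposite signs. A call was lost in 181 recomputations that left out an array and in 87 under other settings, and gained in 5 and 2. Between Atm-/- veh and WT veh, *Map1lc3b* was -0.0005 with 75th percentile scaling and -0.0578 on the arrays with Y-gene signal, *Bnip3* -0.0109 on those arrays, *Fundc1* 0.0211 with normexp, and *Bnip3l* 0.019 with the mean over the probes of a gene. With that mean, *Bnip3l* was -0.0888, *Map1lc3b* -0.0565 and *Vps11* 0.10 between Atm-/- NR and Atm-/- veh, *Sqstm1* 0.0306 between Atm-/- NR and WT NR, *Bnip3l* -0.0372 for the difference of the NR effects, and *Vps11* 0.12 for NR averaged over both genotypes. Leaving out single arrays, the change between Atm-/- veh and WT veh ran from -0.0109 to 0.14 for *Bnip3*, from -0.0912 to 0.0339 for *Fundc1* and from -0.0578 to 0.0657 for *Map1lc3b*. Members called ran from 0 to 1 of 10 between Atm-/- NR and Atm-/- veh and for NR averaged over both genotypes, and pathway genes called from 6 to 23 and from 13 to 25 of 103. On the arrays with Y-gene signal 1 and 8 pathway genes were called in these 2 comparisons (1.51% and 6.57% of all named genes), and 12 in the first with the mean over probes. Shares of all named genes were not counted with an array left out or with the mean over probes. With the methods' t-test at their limit on p alone, 4 members and 52 pathway genes passed between Atm-/- NR and Atm-/- veh (33.8% of all named genes), 22 pathway genes between the veh groups (13.3%), 11 between the WT groups (8.08%) and 7 between the NR groups (6.98%). The causes were not tested.

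With the replicate block, 0 members were called in all 7 comparisons, and 17 pathway genes were called between Atm-/- NR and Atm-/- veh and 21 for NR averaged over both genotypes; same-numbered arrays share only a number and a slide column. The block moved no count of calls by over 1.5 times. Shares of all named genes with the block were not counted. Matching probes by gene name was not run, since the scanner files used here carry accessions alone.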
